A study of Mus musculus with 4 samples.

Results

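Lysophospholipids are phospholipids that have lost a fatty acid, and the genes described here make, re-esterify or sense them. The set holds 10 genes: the lysophospholipid acyltransferase genes Lpcat1, Lpcat2, Lpcat3, Lpcat4, Mboat1, Mboat2 and Mboat7, the autotaxin gene Enpp2, and the receptor genes Ptafr and Gpr132. A probe was taken as a member when the gene name given for it in the scanner files was among these 10, a rule that uses no measured value. The 10 genes themselves were chosen with earlier results of these data known. All 10 genes were found, on 11 probes, among 28663 named genes and 36950 named probes. Of the 10, 9 were well above background on all 4 arrays and 1, Lpcat4, on none.

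Phospholipases A2 remove a fatty acid from a membrane phospholipid and leave a lysophospholipid, which acyltransferases turn back into a phospholipid with a new fatty acid (the Lands cycle). Some lysophospholipids leave this cycle as signals: acetylation of an ether-linked lysophospholipid gives platelet-activating factor (PAF), and autotaxin cleaves lysophosphatidylcholine to lysophosphatidic acid (LPA). In the lung, acyltransferases also build the lipids of surfactant, and PAF and LPA act on airway and inflammatory cells through G protein-coupled receptors.

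The study profiled bronchial epithelial cells from mouse lungs in an ovalbumin (OVA) model of asthma, with 1 array for each of 4 groups: antigen-challenged Pla2g3-/-, control Pla2g3-/-, antigen-challenged Pla2g3+/+ and control Pla2g3+/+. Pla2g3 encodes group III secreted phospholipase A2. Per the labels, mice were sensitised with 10 µg OVA and 1.3 mg alum on days 0 and 14 and challenged with 1% OVA aerosol for 30 min on days 26, 27 and 28, lungs were taken after 3 h, and each array held RNA pooled from 4 samples. The sources used here do not give the age or strain of the mice, how Pla2g3 was inactivated or what control mice received. A difference between challenged and control cells can therefore include one due to sensitisation. With 1 array per group no difference between 2 arrays has a replicate check, and none is given a p-value.

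The array signals go against one of the labels. Pla2g3 was higher, not lower, on the arrays labelled Pla2g3-/-, by 9.14-fold without challenge and 14.9-fold with it for the brighter of its probes. Whether the probes lie inside the deleted stretch, and whether the labels are correct, cannot be settled from the sources used here. The arrays are called "labelled Pla2g3-/-" wherever a genotype direction is given, and "wild type" likewise follows the label. All 8 epithelial markers checked were well above background on every array, with a median level between 4.92 and 5.03 above the array's 75th percentile on the log2 scale. Of the control arrays, the one labelled Pla2g3-/- was at least 2-fold above wild type for 6 of 6 markers of developing T cells (median log2 difference 5.18). In pooled cells, fewer cells of a type and less RNA per cell cannot be told apart.

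Signals are Feature Extraction intensity units, and each array was scaled to its 75th percentile (1979 units for challenged cells labelled Pla2g3-/-, 1834 for control cells labelled Pla2g3-/-, 1808 for challenged wild type, 1986 for control wild type). A difference is the log2 of the scaled signal on an array minus that on another, so 1 is 2-fold, and it is given with the scanner's own error. Probes printed several times on the array had a median SD of such a difference of 0.23 between spots at 30 to 100 units, 0.10 at 100 to 1000 units and 0.08 at 1000 to 20000 units. These errors leave out animals, pools, labelling and hybridisation. Levels of different probes are not set against each other.

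**Figure D1:**
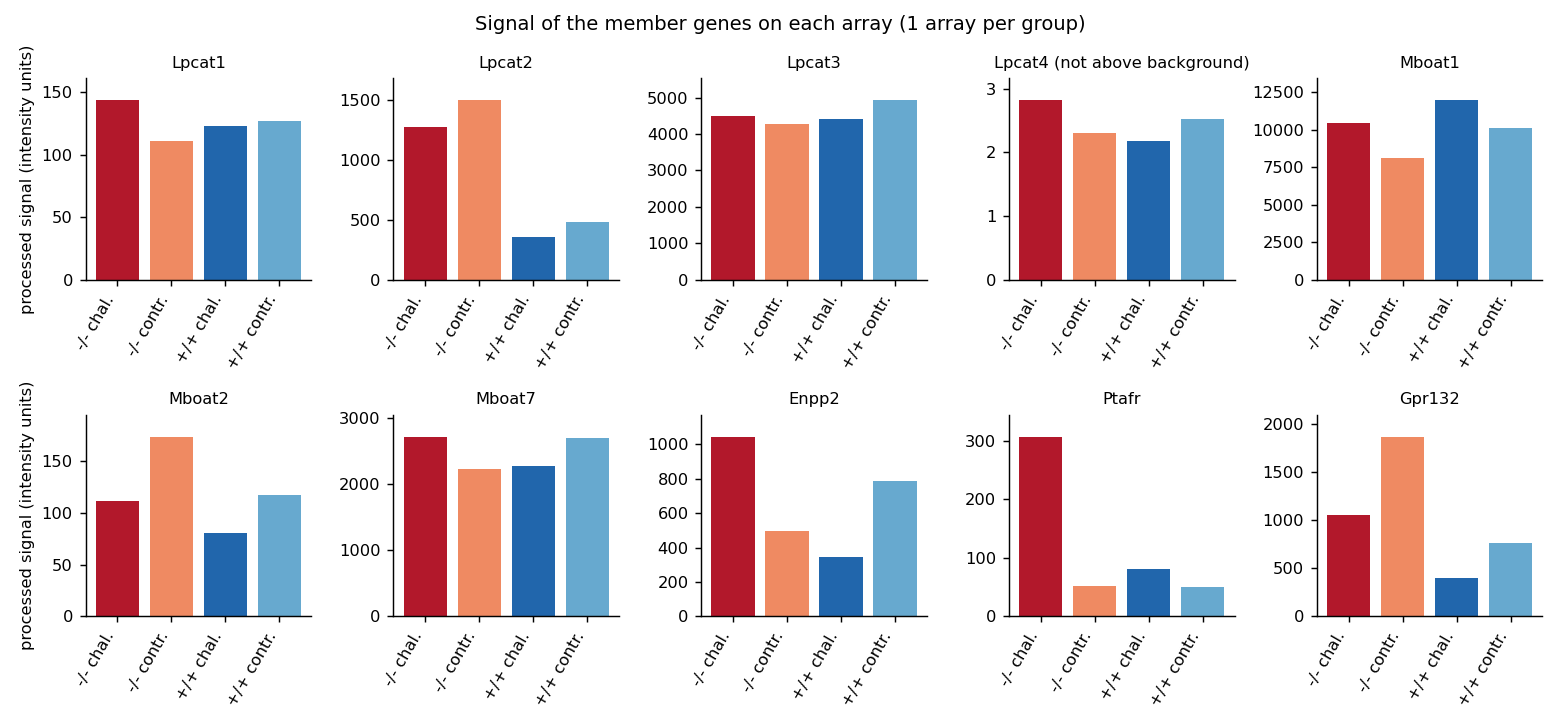
Processed signal (intensity units, linear axis from 0, a scale of its own for each gene) of the 10 genes on the 4 arrays, 1 bar per array, before scaling of the arrays. Lpcat2 and Gpr132 were higher on both arrays labelled Pla2g3-/-, Ptafr was highest on the challenged array labelled Pla2g3-/-, and Lpcat4 was below background throughout.

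Lpcat2 separated the arrays by genotype label and hardly by challenge. LPCAT2 is the acyltransferase of inflammatory cells that also acetylates lyso-PAF, the last step of PAF synthesis in activated macrophages and neutrophils. Its probe lies on chromosome 8 from 95443101 to 95443160 (mm9). It read 1277 units in challenged and 1499.7 in control cells labelled Pla2g3-/-, against 352 in challenged and 482 in control wild-type cells. Both arrays labelled Pla2g3-/- thus read above both wild-type arrays, as they also did for Gpr132. The share of all genes that separate in this way was not counted, so nothing particular to Lpcat2 is read from it. Lpcat2 was 1.73 higher in challenged cells labelled Pla2g3-/- than in challenged wild type (3.31-fold, scanner error 0.20), and 1.75 higher in the control cells so labelled than in control wild type (3.37-fold, scanner error 0.20). The challenge differences were −0.34 in cells labelled Pla2g3-/- and −0.32 in wild type, and the difference between them was −0.02 (scanner error 0.29).

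These genotype differences come from separate pairs of arrays in different conditions, and neither has a replicate. Of 23330 genes measured in both pairs, 194 (0.832%) were at least 2-fold higher on both arrays labelled Pla2g3-/-, and Lpcat2 and Gpr132 were among them, while 0.45% were lower on both and no member was. For 24 of these genes, Lpcat2 included, the smaller of the 2 differences was at least the 1.73 of Lpcat2. Fitted with limma over all 4 arrays, with genotype and challenge as additive terms, Lpcat2 had a genotype effect of 1.74 with a Benjamini-Hochberg adjusted p of 0.0607, above the threshold of 0.05. Across the other settings tried that p ran from 0.0302 to 0.233, and it was under the threshold only when genes below background were kept in the fit.

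GPR132 is a receptor of lymphocytes and macrophages that has been linked to oxidised fatty acids, lysophosphatidylcholine and acid. Its probe lies on chromosome 12 from 114089088 to 114089147 (mm9). The signal was 1057 units in challenged and 1869.8 in control cells labelled Pla2g3-/-, against 403 in challenged and 761 in control wild-type cells. Within each genotype the control array was the higher, and within each condition the array labelled Pla2g3-/- was. The genotype difference was 1.26 under challenge (2.39-fold, scanner error 0.20) and 1.41 without it (2.66-fold, scanner error 0.20). The challenge difference was −0.93 in cells labelled Pla2g3-/- and −0.78 in wild type (scanner error 0.20 each), with −0.15 between them (scanner error 0.29). In the additive limma fit the genotype effect of Gpr132 was 1.34 with an adjusted p of 0.0868, and its challenge effect was −0.86 with an adjusted p of 0.153.

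Markers of other cells moved with both genes in part. T cell markers were at least 2-fold higher in 4 of 8 genes under challenge and in 7 of 8 without it on the arrays labelled Pla2g3-/- (medians 1.01 and 3.28), and their summed level was 5.6 and 28.4 on the challenged and control arrays so labelled, against 4.2 and 5.33 in challenged and control wild type. After challenge T cell markers were at least 2-fold lower in 7 of 8 genes in cells labelled Pla2g3-/- and in 1 of 8 in wild type (medians −3.11 and −0.64). Of 6 B cell markers, 0 were 2-fold different between the challenged arrays (median 0.13), and 5 were lower on the control array labelled Pla2g3-/- than in control wild type (median −1.50). After challenge 0 B cell markers were 2-fold different in cells labelled Pla2g3-/- and 5 were lower in wild type (medians 0.12 and −1.38). Their summed level was 2.29 and 2.18 on the challenged and control arrays labelled Pla2g3-/-, against 1.98 and 5.30 in challenged and control wild type. Neutrophil markers were at least 2-fold higher on the arrays labelled Pla2g3-/- in 5 of 8 genes under challenge and in 1 of 8 without it (medians 1.69 and 0.54). Macrophage and monocyte markers were at least 2-fold higher in 2 of 8 genes under challenge, and without it 1 was higher and 1 lower (medians 0.73 and 0.26). Their summed level was 28.7 and 20.9 on the challenged and control arrays labelled Pla2g3-/-, against 16.1 and 12.6 in challenged and control wild type. That sum leans on bright probes, among them Chil3, with log2 levels of 3.74, 3.35, 3.03 and 0.55 in the same order of arrays. The defining markers Cd3d, Cd3e, Lck, Cd68 and Csf1r were well above background on all 4 arrays. The part of these cells in the values of Lpcat2 and Gpr132 was not tested.

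**Figure D2:**
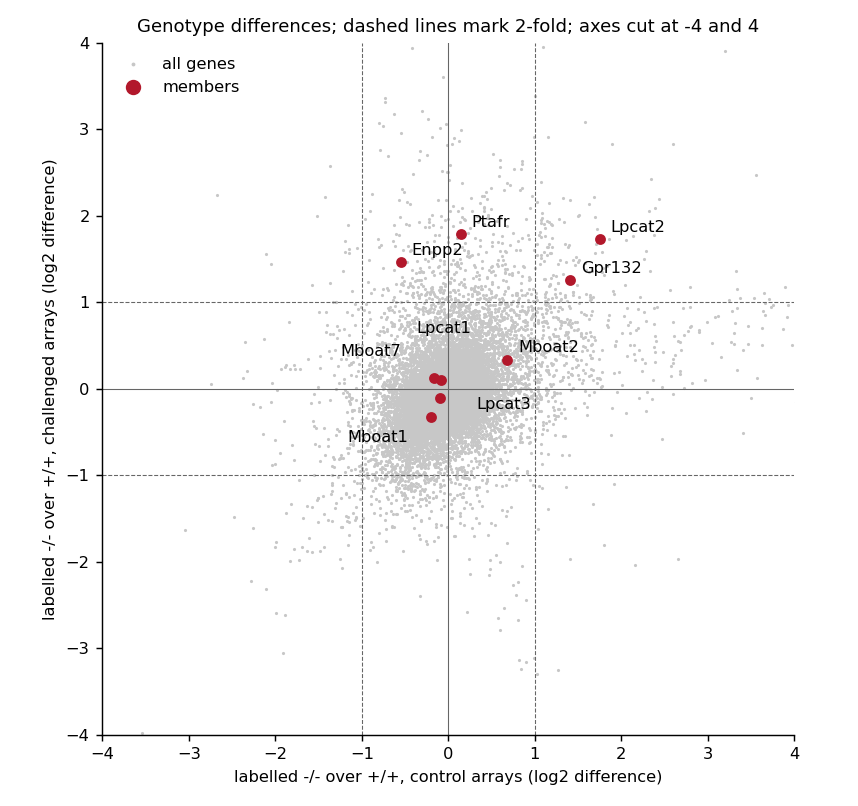
Genotype differences of 22234 genes well above background on all 4 arrays (grey) and of 9 members (red), as log2 of the signal on the array labelled Pla2g3-/- over wild type, for control arrays (horizontal) and challenged arrays (vertical); 27 genes lie outside the axes. Lpcat2 and Gpr132 lie past the 2-fold lines on both axes, and Ptafr and Enpp2 on the vertical axis only.

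Ptafr, the gene of the PAF receptor, which activates neutrophils, macrophages, platelets and airway cells, was highest by far in challenged cells labelled Pla2g3-/-. The probe, at 132136722 to 132136781 of chromosome 4 (mm9), gave 307 units there and 51.1 in control cells labelled Pla2g3-/-, against 81.6 in challenged and 50 in control wild-type cells. The control arrays were nearly level, and both challenged arrays stood above them. The challenge difference was 2.48 in cells labelled Pla2g3-/- (5.58-fold, scanner error 0.21) and 0.84 in wild type (1.79-fold, scanner error 0.22), a difference of 1.64 between genotypes (scanner error 0.31). Of the genes measured, 0.607% had a challenge difference at least as high as that of Ptafr in cells labelled Pla2g3-/-, and 2.44% in wild type.

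Between the challenged arrays Ptafr was 1.78 higher on the array labelled Pla2g3-/- (3.44-fold, scanner error 0.21), and between the control arrays 0.15 higher (scanner error 0.22). The lower readings were near 50 units, where background correction weighs most: with the normexp method the challenge differences were 1.61 in cells labelled Pla2g3-/- and 0.46 in wild type, and the genotype difference under challenge was 1.24. The additive limma fit gave Ptafr a challenge effect of 1.66 with an adjusted p of 0.232.

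Neutrophil markers had, by their median, the same order of arrays as Ptafr. Their median level was 2.49 and −0.51 on the challenged and control arrays labelled Pla2g3-/-, against 0.59 and −1.08 in challenged and control wild type. After challenge 5 of 8 neutrophil markers were at least 2-fold higher in cells labelled Pla2g3-/- and 4 of 8 in wild type, among them Cxcr2 (3.32 and 1.99) and Retnlg (3.31 and 1.96), while Csf3r, Camp and Ltf were not. The summed level of the 8 markers was 259 and 226 on the challenged and control arrays labelled Pla2g3-/-, against 247 and 236 in challenged and control wild type, and none was below background. By that sum the control arrays stood in the reverse order to Ptafr. Whether neutrophils gave the Ptafr signal was not tested.

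Enpp2 had challenge differences of opposite sign in the 2 genotypes. It encodes autotaxin, the secreted lysophospholipase D that makes most extracellular LPA. Its probe, on chromosome 15 from 54670921 to 54670980 (mm9), ends in the stop codon of an open reading frame, shown here in capitals, and so reads the 3′ end of the coding sequence:
Enpp2 probe: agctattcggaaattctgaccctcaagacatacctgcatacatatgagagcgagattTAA
It read 1044 units in challenged and 496 in control cells labelled Pla2g3-/-, against 346 in challenged and 786 in control wild-type cells. The highest and the lowest of the 4 readings were thus the challenged arrays of the 2 genotypes.

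Enpp2 was 0.96 higher after challenge in cells labelled Pla2g3-/- (1.95-fold, scanner error 0.20) and 1.05 lower in wild type (a log2 difference of −1.05, scanner error 0.20). The difference between the 2 was 2.01 (scanner error 0.29). Between the challenged arrays Enpp2 was 1.46 higher in cells labelled Pla2g3-/- (2.75-fold), and between the control arrays the difference was −0.55.

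The median of the macrophage and monocyte markers had the order of arrays of Enpp2, but their summed level, given above, did not and was lowest in control wild type. The sum leans on bright probes such as Chil3, itself lowest in control wild type, so no order of the list as a whole is read from it. The markers had a median level of 0.89 and −0.03 on the challenged and control arrays labelled Pla2g3-/-, against −0.47 and 0.13 in challenged and control wild type. Of these markers, 2 of 8 were at least 2-fold higher after challenge in cells labelled Pla2g3-/-, and in wild type 1 was higher and 1 lower. The lower one was Marco, a scavenger receptor of alveolar macrophages, at 1.94 in cells labelled Pla2g3-/- and −2.01 in wild type. The higher one was Chil3, a chitinase-like protein of macrophages, at 0.39 and 2.48 in the same order of genotypes. Endothelial markers had medians of 0.68 in cells labelled Pla2g3-/- (3 of 7 at least 2-fold higher) and −0.10 in wild type (0 of 7), with summed levels of 4.62 and 3.53 on the challenged and control arrays labelled Pla2g3-/-, against 3.93 and 4.49 in challenged and control wild type. All markers of both lists with a probe were well above background, and their part in the Enpp2 values was not tested. Medians of the dendritic cell markers had the signs of Enpp2. They were 0.96 after challenge in cells labelled Pla2g3-/- (1 of 5 at least 2-fold higher) and −0.36 in wild type (1 of 5 lower). For genotype they were 0.62 under challenge and −0.32 without it. The summed level was 1.61 and 0.84 on the challenged and control arrays labelled Pla2g3-/-, against 0.89 and 1.24 on those of wild type. The part of these cells was not tested. Adipocytes are known for much autotaxin. Of 6 adipocyte markers, 4 were well above background on all 4 arrays, Lep was on none and Adipoq on 1. Their median difference was −0.21 after challenge in cells labelled Pla2g3-/- (1 of 5 at least 2-fold lower) and −1.28 in wild type (2 of 4 lower), and 0.50 for genotype under challenge (0 of 4 at 2-fold). Their summed level was 0.158 and 0.257 on the challenged and control arrays labelled Pla2g3-/-, against 0.111 and 0.266 in challenged and control wild type, and their part was not tested either.

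**Figure D3:**
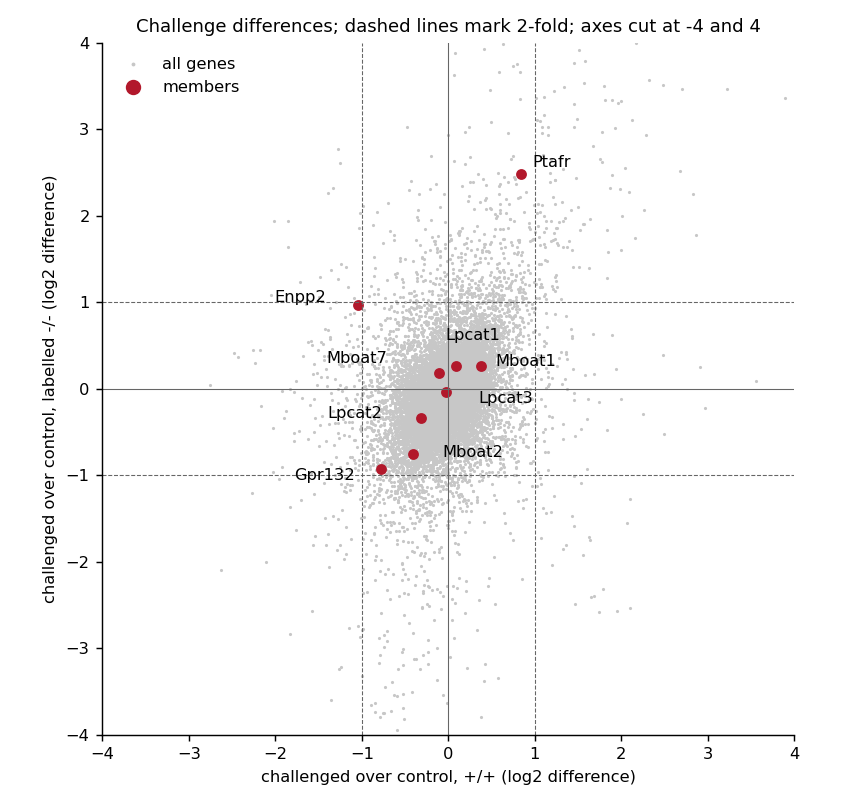
Challenge differences of 22234 genes well above background on all 4 arrays (grey) and of 9 members (red), as log2 of challenged over control signal, in wild type (horizontal) and in cells labelled Pla2g3-/- (vertical); 33 genes lie outside the axes. Ptafr lies high on the vertical axis, Enpp2 in the upper left with opposite signs, and the acyltransferase genes near the centre.

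**Figure D4:**
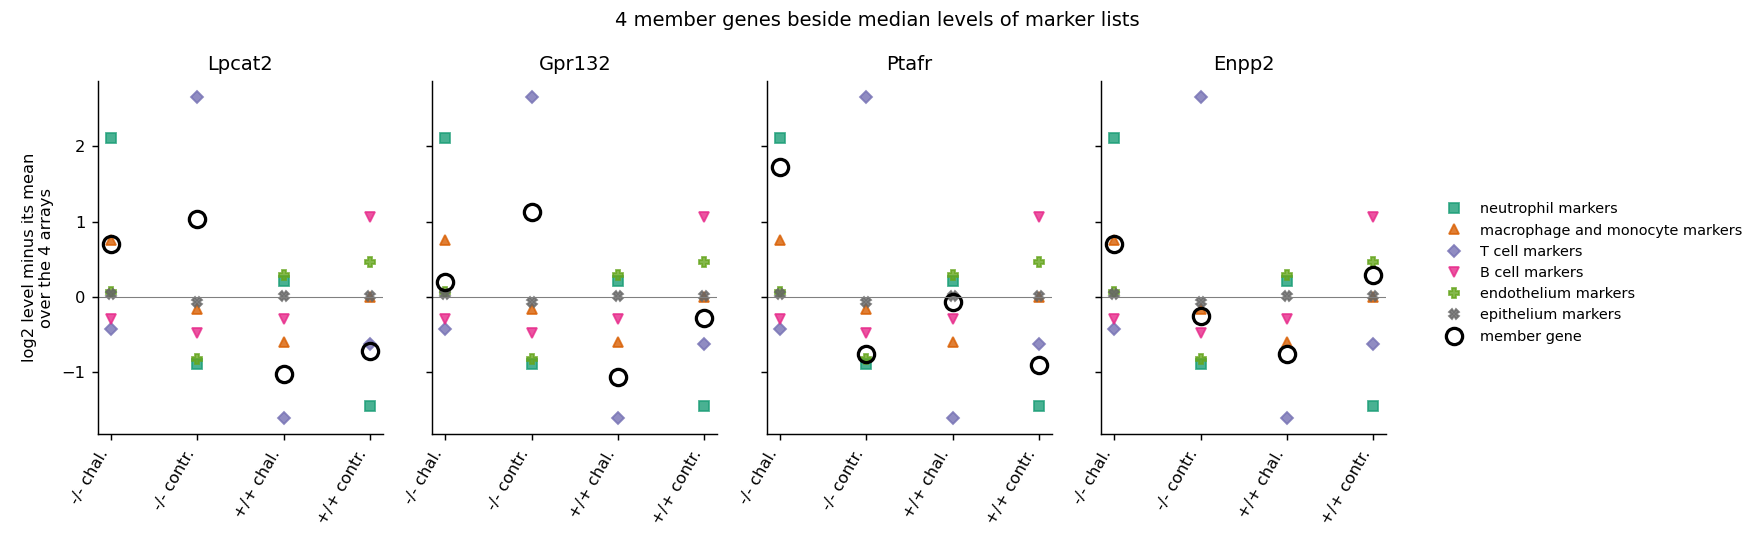
Log2 level on each array minus its mean over the 4 arrays, for Lpcat2, Gpr132, Ptafr and Enpp2 (open circles, 1 panel each) beside the median levels of 6 marker lists (filled symbols, the same in every panel). Neutrophil markers follow the order of Ptafr over the arrays, T cell markers are highest on the control array labelled Pla2g3-/-, and epithelial markers stay near 0.

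Of the other acyltransferase genes, none was 2-fold different in a comparison, and Mboat2 varied most over the arrays. LPCAT1 makes the disaturated phosphatidylcholine of surfactant in alveolar type 2 cells, and its probe also ends in a stop codon (capitals), on chromosome 13 from 73651927 to 73651986 (mm9):
Lpcat1 probe: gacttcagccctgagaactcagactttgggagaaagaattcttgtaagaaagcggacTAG
Lpcat1 read 144 and 111 units in challenged and control cells labelled Pla2g3-/-, against 123 and 127 in challenged and control wild-type cells. Its differences lay between −0.08 and 0.27 (scanner error 0.21). The 4 readings were within 0.27 of each other after scaling.

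LPCAT3 puts polyunsaturated fatty acids such as arachidonic acid into phosphatidylcholine. Lpcat3 read 4497 and 4280.1 units in challenged and control cells labelled Pla2g3-/-, against 4414 and 4938 in challenged and control wild-type cells. The scaled readings spanned 0.13, the smallest span of the 9 measured members, and all 4 differences were smaller than the scanner error of 0.20. MBOAT7 puts arachidonic acid into phosphatidylinositol. Mboat7 read 2711 and 2223.5 units in challenged and control cells labelled Pla2g3-/-, against 2270.5 and 2692 in challenged and control wild-type cells, with differences of 0.18 and −0.11 after challenge, also below the scanner error.

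MBOAT1 and MBOAT2 re-esterify lysophosphatidylethanolamine, and also lysophosphatidylserine (MBOAT1) or lysophosphatidylcholine (MBOAT2). Mboat1 read 10470.6 and 8119 units in challenged and control cells labelled Pla2g3-/-, against 11998 and 10124 in challenged and control wild-type cells. Its challenge differences were 0.26 and 0.38 (scanner error 0.20), and the array labelled Pla2g3-/- was the lower in each condition (−0.33 under challenge and −0.20 without it).

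Mboat2 had 2 probes, which differed in part. The brighter read 111 and 174 units in challenged and control cells labelled Pla2g3-/-, against 80.6 and 118 in challenged and control wild-type cells, and its challenge differences were −0.75 in cells labelled Pla2g3-/- and −0.41 in wild type (scanner error 0.21). The dimmer, which matches a predicted transcript variant, read 31.8 and 43.4 units in challenged and control cells labelled Pla2g3-/-, against 34.6 and 35.7 in challenged and control wild-type cells. It gave −0.56 in cells labelled Pla2g3-/- and 0.09 in wild type (scanner errors 0.24 and 0.23). Both probes put the control array labelled Pla2g3-/- highest. Only the brighter had the array labelled Pla2g3-/- higher in both conditions, by 0.34 under challenge and 0.68 without it.

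Lpcat4, whose product acylates lysophosphatidylethanolamine and lysophosphatidylcholine, has no value here. Its only probe lies on chromosome 2 from 112087195 to 112087254 (mm9). The signal was 2.82 and 2.31 units in challenged and control cells labelled Pla2g3-/-, against 2.18 and 2.53 in challenged and control wild-type cells, not well above background on any of the arrays. The probe is unusually rich in A and T, with 51 of its 60 bases, where the median over 36950 named probes was 35. Its last 30 bases are shown to make this visible, with a polyadenylation hexamer in capitals:
Lpcat4 probe, last 30 bases: tataaatataaatatatatctAATAAAaaa
Of the 23 probes with at least 51 such bases, 34.8% were well above background on at least 1 array, against 85.3% of all named probes. No statement on the transcript follows from this probe.

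Counted at 2-fold, 4 of the 9 measured members (Ptafr, Lpcat2, Enpp2 and Gpr132) were higher and 0 lower in challenged cells labelled Pla2g3-/- than in challenged wild type, where 3.84% of all measured genes were higher and 2.48% lower. Between the control arrays 2 of 9 (Lpcat2 and Gpr132) were higher and 0 lower, against 3.19% and 1.79% of all genes. After challenge 1 of 9 (Ptafr) was higher and 0 lower in cells labelled Pla2g3-/-, against 3.86% and 3.42% of all genes. In wild type 0 of 9 were higher and 1 (Enpp2) lower after challenge, against 1.81% and 1.68%. The challenge difference was at least 2-fold greater in cells labelled Pla2g3-/- for 2 of 9 (Enpp2 and Ptafr) and lower for 0, against 3.45% and 3.49% of all genes. No member was 2-fold higher after challenge in both genotypes (0.777% of all genes) or lower in both (0.365%).

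At 1.5-fold, 4 of 9 members were higher and 0 lower for genotype under challenge (7.83% and 7.14% of all genes), and 3 higher and 0 lower for genotype without it (6.62% and 5.8%), Mboat2 being the one added. After challenge 2 were higher and 2 lower in cells labelled Pla2g3-/- (7.72% and 9.95%), and 1 higher and 2 lower in wild type (4.59% and 5.25%). Gpr132 was lower and Ptafr higher in both genotypes, and the share of all genes that do so at 1.5-fold was not counted. The median difference of the 9 members was 0.34 for genotype under challenge (−0.05 over all genes), −0.08 for genotype without it (−0.03), 0.18 after challenge in cells labelled Pla2g3-/- (−0.06) and −0.11 after it in wild type (−0.03).

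The 7 acyltransferase genes and the other 3 genes thus differ in what they contribute to these counts: of the acyltransferases, Lpcat2 was past 2-fold in any comparison and none of the other measured ones was. In the additive limma fit 0 of 9 members passed an adjusted p of 0.05 for challenge or for genotype, where 5 (0.0225%) and 8 (0.036%) of 22234 genes did. At an unadjusted limma p under 0.05 there were 5 of 9 members for challenge and 4 of 9 for genotype, and 3494 and 2773 of the 22234 genes. Such p-values were thus common over all genes, and with 9 members no difference from those shares is read. The fit has 1 residual degree of freedom. Its error comes from the difference between the challenge effects of the genotypes, moderated across genes. For Enpp2 the opposite signs cancelled in the estimate, which gave a challenge effect of −0.04 with an adjusted p of 0.978.

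**Figure D5:**
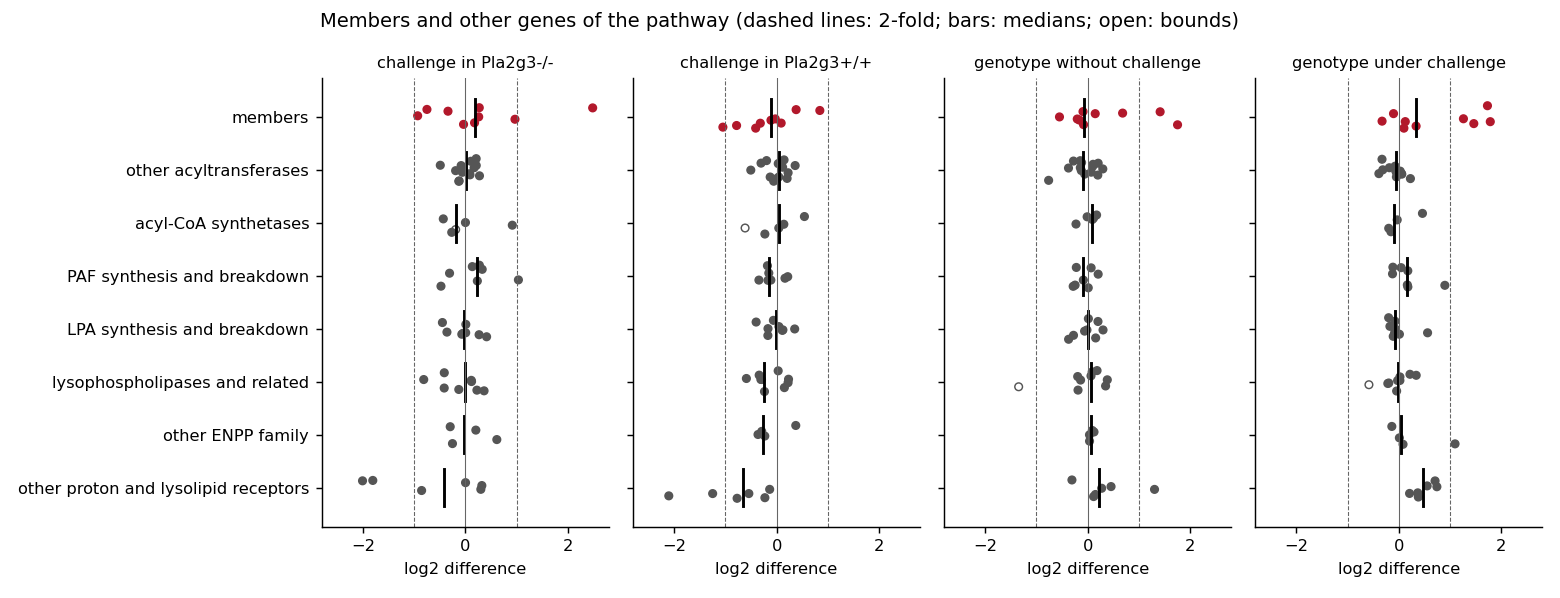
Log2 differences in the 4 comparisons of the members (top row, red) and of 7 lists of other genes of the pathway (grey), 1 point per gene, with medians as bars and bounds as open circles. Of the members, 4 lie past 2-fold for genotype under challenge, while the lists of other acyltransferases, acyl-CoA synthetases and LPA enzymes stay inside the 2-fold lines in every panel.

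Other genes of the pathway were counted in the same way. Of 55 such genes on 7 lists, 52 were measured for genotype under challenge, with 1 higher at 2-fold and 0 lower. The counts were 1 higher and 1 lower of 53 for genotype without it, 1 higher and 2 lower of 52 after challenge in cells labelled Pla2g3-/-, and 0 higher and 2 lower of 53 after challenge in wild type. Over all measured genes the shares higher and lower were those given above for the members, and with counts this small no difference from those shares is read. None of 14 other acyltransferase genes (the Agpat and Gpat families, Lclat1, Lpgat1 and others) reached 2-fold in any of the 4 comparisons, nor did any of 5 acyl-CoA synthetase genes, which supply the acyl donor, or of 8 genes that make or break down LPA. The medians of the 14 acyltransferases lay between −0.09 and 0.04. Acsl4, an acyl-CoA synthetase that prefers arachidonic acid, had challenge differences of 0.91 in cells labelled Pla2g3-/- and 0.54 in wild type.

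Of 7 genes of PAF synthesis and breakdown, 1 was past 2-fold. Pla2g7, the plasma PAF acetylhydrolase that inactivates PAF, read 1308 and 593 units in challenged and control cells labelled Pla2g3-/-, against 642 and 762 in challenged and control wild-type cells. Pla2g7 was 1.03 higher after challenge in cells labelled Pla2g3-/- and −0.11 in wild type, and its other probe gave 0.96 and −0.13. Between the challenged arrays Pla2g7 was 0.90 higher in cells labelled Pla2g3-/-. Pla2g7 and Ptafr were thus both highest on the challenged array labelled Pla2g3-/-, which was also the array with the highest macrophage and neutrophil marker medians.

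Among relatives of autotaxin, Enpp3 was 1.1 higher in challenged cells labelled Pla2g3-/- than in challenged wild type, with challenge differences of 0.61 in cells labelled Pla2g3-/- and −0.36 in wild type. In these comparisons it had the signs of Enpp2 at a smaller size. Between the control arrays Enpp3 was 0.12 higher on the array labelled Pla2g3-/-, where Enpp2 was lower. Enpp6, a choline-specific phosphodiesterase, was below the background limit on both arrays labelled Pla2g3-/-. Between the control arrays its log2 difference from wild type was −1.35 as a bound, that is, at least that much lower. Its challenge difference in wild type was −0.59.

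Among 8 other proton and lysolipid receptor genes, 2 receptors of lysophosphatidylserine found on lymphocytes were lower after challenge in both genotypes. T cell markers were lower with them in cells labelled Pla2g3-/-, and B cell markers in wild type, by the values given above, and the part of these cells was not tested. Gpr174 differed by −2.01 in cells labelled Pla2g3-/- and −2.10 in wild type on the only probe above background, and P2ry10 by −1.81 and −1.25. P2ry10 was also 1.30 higher between the control arrays and 0.74 higher between the challenged arrays in cells labelled Pla2g3-/-. As with Gpr132, the control array was the higher within each genotype and the array labelled Pla2g3-/- within each condition. Of receptors related to GPR132, Gpr65 was 0.71 and Gpr4 0.38 higher in challenged cells labelled Pla2g3-/- than in challenged wild type, both below 2-fold. Gpr55 and Gpr119 were not well above background on any array.

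For Lpcat2, Ptafr, Gpr132 and Enpp2, which spanned at least 2-fold over the arrays, the genes with the most similar pattern were found as those with the smallest root mean square distance between centred log2 values on the 4 arrays, among 22233 other genes. With 4 arrays such a likeness is a description, and with so many genes some lie close to any pattern. For Lpcat2 they were Lcp2 (distance 0.06), an adaptor of T cell receptor signalling also used in myeloid cells, then Plac9a and Calr3. For Ptafr they were Cxcr1 (0.10), a chemokine receptor of neutrophils, Cd300lf, a receptor of myeloid cells, and Timp1. For Gpr132 they were Inpp4b (0.07), Mir142hg, the host gene of a microRNA of blood cells, and Mpo, the neutrophil myeloperoxidase. For Enpp2 they were Cd209c (0.06), Stk32a and Olfr1090.

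The 5 neighbouring genes on each side of Gpr132, Lpcat2, Ptafr and Enpp2 were looked at after their values had been seen, in the gene order of GRCm38.p6. Around Gpr132, 0 of 10 neighbours were at least 2-fold different in either genotype comparison, with differences between −0.32 and 0.51. Around Lpcat2, 1 was higher and 1 lower of 8 measured between the control arrays, and 1 higher and 1 lower of 9 between the challenged arrays. The lower one was Ces1b, a carboxylesterase gene, at −1.83 under challenge and −2.0 without it. The higher ones were Capns2, at least 1.59 under challenge, and Slc6a2, 1.67 without it. Mmp2, the nearest measured gene before Lpcat2, differed by 0.36 under challenge and 0.35 without it. Around Ptafr, 1 of 10 was higher under challenge (Themis2, 1.116) and 0 were 2-fold different without it. Around Enpp2, 1 of 9 was higher under challenge (Tnfrsf11b, 1.04) and 1 of 9 without it (Dscc1, 1.15).

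Promoters of Lpcat2, Gpr132 and Ptafr are printed because these genes were at least 2-fold different in a comparison and have a promoter in the table used, where Enpp2 is not listed. They are from RefSeq on GRCm38.p6, as 250 bases before to 50 after the start, with motif matches in capitals. The motifs searched on both strands were AP-1 (TGANTCA), a PU.1 core (GAGGAA), an NF-kB form (3 G, any 3 bases, then 2 T and 2 C), CRE (TGACGTCA), an E-box (CACGTG) and a TATA box (TATAAA). Of 32851 promoters of this length 7.81% held the AP-1 letters, 28.3% the PU.1 core, 5.56% the NF-kB form, 1.79% CRE, 7.15% the E-box and 13.6% the TATA box.
Lpcat2 promoter (chr8:92855083-92855382, + strand): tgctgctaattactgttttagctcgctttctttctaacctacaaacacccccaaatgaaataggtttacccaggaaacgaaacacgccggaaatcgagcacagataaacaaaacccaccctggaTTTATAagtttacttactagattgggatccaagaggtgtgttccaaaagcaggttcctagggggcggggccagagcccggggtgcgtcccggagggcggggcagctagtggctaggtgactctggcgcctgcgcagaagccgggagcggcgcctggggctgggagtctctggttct
Gpr132 promoter (chr12:112860867-112861166, − strand): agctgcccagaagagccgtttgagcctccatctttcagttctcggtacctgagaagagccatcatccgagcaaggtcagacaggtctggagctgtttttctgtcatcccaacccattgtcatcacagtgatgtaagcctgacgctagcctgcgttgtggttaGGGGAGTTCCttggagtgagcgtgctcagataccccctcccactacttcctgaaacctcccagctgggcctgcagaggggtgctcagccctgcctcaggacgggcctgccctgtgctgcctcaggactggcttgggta
Ptafr promoter (chr4:132563817-132564116, + strand): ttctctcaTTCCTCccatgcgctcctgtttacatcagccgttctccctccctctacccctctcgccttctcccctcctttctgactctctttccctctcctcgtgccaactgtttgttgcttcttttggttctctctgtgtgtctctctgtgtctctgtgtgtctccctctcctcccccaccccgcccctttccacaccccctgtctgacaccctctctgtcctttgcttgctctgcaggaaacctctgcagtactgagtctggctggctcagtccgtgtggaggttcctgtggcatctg
The Lpcat2 window held a TATA box match on the opposite strand at position −126 from the start, the Gpr132 window an NF-kB match at −88, and the Ptafr window a PU.1 core on the opposite strand at −242. The Lpcat2 window had 15 CpG dinucleotides, that of Gpr132 7 and that of Ptafr 6, against a median of 7 over all promoters. The 3 windows share no matched motif, and the matches are letters only.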

How the data were processed

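Each array's deposited file gives spot intensity as extracted with Feature Extraction 11.5.1.1 (Agilent), with spatial and multiplicative detrending on, and places probes on mm9, per the file headers. The authors' value table held the same processed intensity divided by each array's 75th percentile, for 44397 of 44397 features (the log2 offset varied by at most 1.59e-06 across an array, and column medians were 0.0850 to 0.0879). The deposited signal was put on the log2 scale relative to the 75th percentile of 43020 non-control spots of its array. Outlier spots (128 to 155 per array) were left out, no spot was saturated, and spots of a probe were averaged. Between 79.2% and 81.9% of spots were well above background. The number of arrays limits the precision. All 4 arrays share 1 slide, so position on it and group cannot be told apart.

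Of 39429 probes, 28330 took their symbol from a RefSeq accession, the others kept the file's name, and a gene was represented by its brightest probe. Where a gene was below the background limit on 1 array of a pair, its difference is a bound, from the lowest signal well above background. Genes were counted at 2-fold, with no test. The additive fit used limma 3.58.1 in R 4.3.3, with a variance trend and Benjamini-Hochberg adjustment, on genes above background on all 4 arrays, and was checked on simulated data. Named were Pla2g3, all 10 members, and genes of the pathway lists at least 2-fold different in any comparison, besides marker lists as counts; Acsl4, Gpr65, Gpr4 and single markers were named after their values were seen. The members and lists were chosen with earlier results of these data known. Samples were grouped by their titles. Some results, among them the genes most like Mboat2, are not reported here.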

Additional observations from a re-analysis of the deposited data

Results flagged for a closer look

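Enpp2 was picked out because its challenge differences had opposite signs in the 2 genotypes, each larger than its scanner error of 0.20. It was 0.96 in cells labelled Pla2g3-/- and −1.05 in wild type, 2.01 apart. The same 4 values give genotype differences of opposite sign, 1.46 under challenge and −0.55 without it, also 2.01 apart. With 1 array per group the difference between genotypes was not tested. By the brightest probe, no other of the 9 measured members had opposite signs with both differences beyond their scanner error. The dimmer probe of Mboat2 did for genotype, with −0.26 under challenge and 0.40 without it (scanner errors 0.24 and 0.23).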

How the results depend on the processing

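At 2-fold, 9 of the 10 counts of members (higher and lower in 5 comparisons) kept the value given above with normexp, the exception being challenge in wild type, where 0 rather than 1 member was lower (Enpp2 at −0.93). With quantile normalization 2 members rather than 1 were higher after challenge in cells labelled Pla2g3-/-, since Enpp2 reached 1.01. Averaging probes, using the authors' value table or keeping genes detected on every array moved no count of members. At 1.5-fold there were 2 higher and 2 lower after challenge in cells labelled Pla2g3-/-, and 1 higher and 2 lower in wild type. Against the control array of the other genotype, 2 members were higher after challenge in cells labelled Pla2g3-/- (Ptafr, and Lpcat2 at 1.41) and 3 lower in wild type (Lpcat2 at −2.07, Gpr132 at −2.19 and Mboat2 at −1.09), and Gpr132 in cells labelled Pla2g3-/- was 0.48 in place of −0.93. Over all genes, 1742 and 1517 were at least 2-fold different in these 2 comparisons, not split by direction. Each such difference also holds the genotype difference between the control arrays, so these calls of members are no separate result. No difference of a member that was at least 2-fold reversed in sign in the same comparison under any of these settings. Smaller differences did, among them that of Gpr132 just given. Another was the challenge difference of Lpcat2 in cells labelled Pla2g3-/-, which was −0.34 with its own control array. In the limma fit 1 member, Lpcat2, passed for genotype when genes below background were kept.

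Over all genes, normexp gave 697 genes at 2-fold in place of 1727 for challenge in cells labelled Pla2g3-/-, 185 in place of 840 for challenge in wild type, 455 in place of 1193 and 436 in place of 1507 for genotype without and under challenge, and 612 in place of 1617 for the difference of challenge effects. Keeping genes detected on every array, the wild-type count was 465 and that for genotype under challenge 985, and with the other control array the wild-type count was 1517. At 1.5-fold the 5 counts were 4195, 2370, 2974, 3569 and 3628 in the same order. The limma fit called 5 genes for challenge, 8 when genes below background were kept and 0 without a variance trend. It called 8 for genotype, and 43, 0, 4 and 1 with genes below background kept, without a trend, with quantile normalization and with the mean of probes. Beyond what these settings' construction shows, the cause was not tested. Of the members' values, the challenge difference of Ptafr in cells labelled Pla2g3-/- moved most with normexp (1.61 in place of 2.48). No paired analysis was possible because each group had 1 array and the labels give no replicate numbers.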
